A study of Rattus norvegicus with 16 samples.

Results

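The comparison was of PDGF-AA with no growth factor after 12 h in cultured rat neural stem and progenitor cells, and it rests on 8 of the 16 arrays of the study. The members were chosen by their titles: 4 arrays of cells given PDGF-AA and 4 arrays of cells given none, all at 12 h. The cells came from the neocortex of Sprague-Dawley rat embryos at embryonic day 14.5 and were grown as a monolayer in N2 medium with 10 ng/ml FGF-2, the mitogen that keeps them dividing. PDGF-AA was added daily at 10 ng/ml, and no genetic change is named for any group. Whether FGF-2 was still present with PDGF-AA is not spelled out, but the design sets PDGF-AA beside FGF-2 and absence of factor as separate conditions. RNA of cells kept in FGF-2 was the reference in the other dye on every array, and the sample RNA was in Cy5 on 2 arrays and in Cy3 on 2 arrays of each group. At least 2 RNA preparations lie behind each group and the labels do not say which arrays share one, so p-values reflect hybridisation spread that may be technical rather than biological.

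PDGF-AA is a dimer of platelet-derived growth factor that binds the receptor PDGFRα, a tyrosine kinase of glial progenitors and of some cortical progenitors. Active receptor signals through RAS and the ERK kinases, which induce immediate early genes such as Egr1 and feedback inhibitors such as Spry4, and through PI3 kinase and AKT, which hold back FoxO factors. Mitogens drive cells past the G1 restriction point by raising cyclins, releasing E2F factors from RB proteins and so inducing the genes of DNA replication.

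All values are log2 ratios to the FGF-2 reference, and a difference is the PDGF-AA mean minus the no-factor mean, so that the reference drops out of it. The base of the logarithm and the direction of the ratios are not given in the sources used here. Base 2 is assumed. Sample over reference is likely, because replication genes and FGF-responsive genes (Spry4, Etv5, Egr1) lay below 0 after removal of FGF-2, and every sign below rests on it. The position of these genes below 0 without factor is therefore not a result. Array values are listed with the Cy5 arrays first and the Cy3 arrays second in each group and carry no dye correction. Groups that did not overlap had every PDGF-AA array on one side of every no-factor array, and groups separated within each dye had this among arrays of the same dye.

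A single named gene rose with PDGF-AA in the test over all 12559 units (6241 named genes and 6318 unnamed probes): Mcm6, a subunit of the MCM helicase that unwinds DNA at replication origins. The other unit that rose was an unnamed probe, and no unit fell (2 called, 0.0159% of units, adjusted p from limma at most 0.05). Below the threshold, 681 units had an unadjusted p under 0.05 (5.42%), 446 of them higher (3.55%) and 235 lower (1.87%). Of the 84 measured genes in 4 lists of DNA replication, nucleotide supply and S phase chromatin, 41 had an unadjusted p under 0.05 on the higher side and 0 on the lower side, and 17 stood among the 100 smallest p-values. The lists were chosen with earlier results of these data known, so these counts are descriptive. Differences of these 84 genes had a median of 0.37 and were above 0 for 69, against a median of 0.00 and 49.4% above 0 over all units. PDGF-AA arrays were separated from no-factor arrays within both dyes for 38 of them on the higher side and 1 on the lower side, against 5.49% and 4.01% of all units. Separation over all 8 arrays, whatever the dye, held for 1.65% of units on the higher side and 0.685% on the lower side. The median SE of a difference was 0.171, and the 95% interval lay within 1 log2 unit of 0 on both sides for 96.7% of units, so a change of more than 2-fold was outside the interval for nearly all of them. RNA was taken from whole cultures, in which a larger share of cycling cells and more RNA per cell cannot be told apart.

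**Figure D1:**
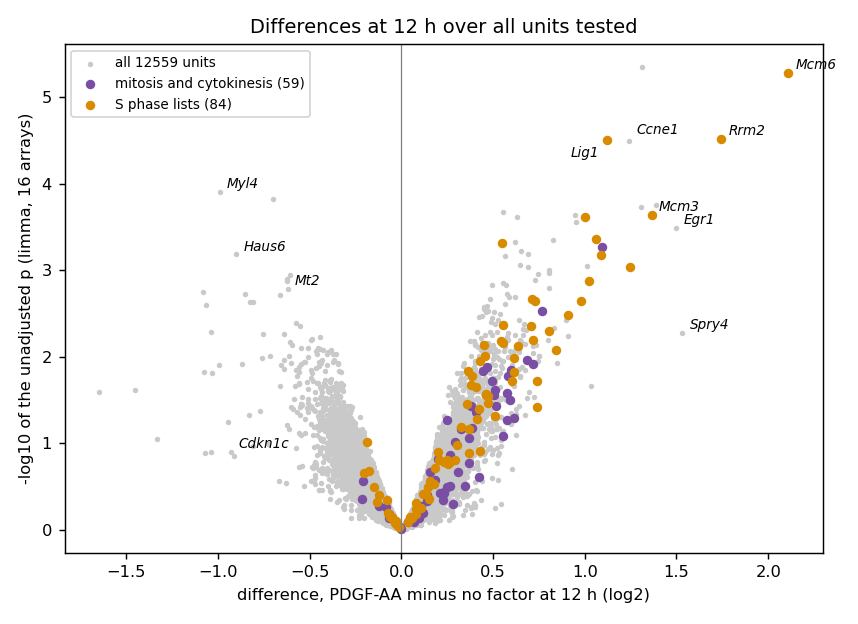
Each point is 1 of 12559 units, with the difference between PDGF-AA and no factor at 12 h on the x axis (log2) and -log10 of the unadjusted limma p on the y axis. Genes of the 4 S phase lists (84, orange) and of mitosis and cytokinesis (59, purple) lie mostly to the right of 0, with Mcm6 at 2.11 farthest right.

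The list of origin licensing and the MCM helicase had the highest median of the 28 lists, 0.45. Mcm6 read -2.35, -2.61, -2.96 and -2.46 without factor and -0.43, -0.26, -0.85 and -0.40 with PDGF-AA. All 4 PDGF-AA arrays lay above all 4 no-factor arrays, with a gap of more than 1 log2 unit between the groups. The difference was 2.11 ± 0.32 (SE, n = 4 arrays per group; adjusted p = 0.0329, limma), a ratio of 4.31 (95% interval 2.70 to 6.88), and it was 2.13 on the Cy5 arrays and 2.09 on the Cy3 arrays. The unnamed probe H3021F12_1 read -2.06, -1.72, -1.87 and -1.61 without factor and -0.87, -0.27, -0.63 and -0.25 with PDGF-AA, also with no overlap, and differed by 1.31 ± 0.20 (adjusted p = 0.0329, limma).

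Other subunits of the same helicase lay on the same side without passing the test over all units. Mcm3 read -2.48, -2.58, -2.12 and -1.51 without factor and -1.26, -0.78, -0.83 and -0.35 with PDGF-AA, a difference of 1.37 ± 0.29 (adjusted p = 0.218, limma), and its groups did not overlap. Mcm2 read -1.86, -1.81, -1.38 and -1.06 without factor and -0.60, -0.67, -0.32 and -0.17 with PDGF-AA, a difference of 1.09 ± 0.26 (adjusted p = 0.332, limma), again with no overlap. Mcm5 read -2.08, -2.70, -0.91 and -0.96 without factor and -1.26, -0.63, -0.24 and 0.45 with PDGF-AA. Its arrays separated within each dye but overlapped across dyes, since the Cy3 arrays of both groups read higher, and the difference was 1.25 ± 0.31 (adjusted p = 0.384, limma). Mcm7 differed by 0.55 ± 0.13 (adjusted p = 0.303, limma). Gmnn, which encodes geminin, the inhibitor of re-licensing in the same cycle, differed by 1.06 ± 0.24 (adjusted p = 0.303, limma). In the list of origin licensing and the MCM helicase, 18 of 25 genes were measured and 1 passed. An unadjusted p under 0.05 was found for 9, all higher (50%, against 3.55% of all units). The origin recognition gene Orc1 stood at -0.13 ± 0.18. A change in Orc1 of more than 0.52 downward or 0.25 upward was outside its 95% interval.

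Promoters of replication genes are textbook targets of E2F factors. The windows below run from 250 bases before to 30 bases after the annotated start, 5′ to 3′ on the gene's strand, from RefSeq on the rat build GRCr8. Capitals mark matches to the E2F letters TTTCCCGC, TTTCGCGC, TTTGCCGC or TTTGGCGC on either strand, and touching or overlapping matches form one run. They are shown for the 4 S phase genes with the largest differences among those whose promoter is in the table (Rrm2 is not) and holds a match, so they do not represent the list. The windows lie at chr13:42404323-42404602 (minus strand) for Mcm6, chr9:30733717-30733996 (minus strand) for Mcm3, chr19:13488563-13488842 (plus strand) for Mcm5 and chr1:83242920-83243199 (plus strand) for Lig1.
Mcm6: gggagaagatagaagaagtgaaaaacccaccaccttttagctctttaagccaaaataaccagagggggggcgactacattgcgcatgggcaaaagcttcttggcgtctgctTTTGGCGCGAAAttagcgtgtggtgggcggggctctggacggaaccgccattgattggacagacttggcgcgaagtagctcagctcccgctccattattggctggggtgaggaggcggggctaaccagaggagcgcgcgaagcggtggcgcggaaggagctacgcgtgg
Mcm3: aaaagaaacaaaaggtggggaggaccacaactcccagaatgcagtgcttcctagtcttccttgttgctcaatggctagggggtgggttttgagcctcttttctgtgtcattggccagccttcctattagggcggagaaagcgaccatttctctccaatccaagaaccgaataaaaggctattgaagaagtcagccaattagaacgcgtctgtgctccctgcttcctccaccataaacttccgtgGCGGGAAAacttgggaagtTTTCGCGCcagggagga
Mcm5: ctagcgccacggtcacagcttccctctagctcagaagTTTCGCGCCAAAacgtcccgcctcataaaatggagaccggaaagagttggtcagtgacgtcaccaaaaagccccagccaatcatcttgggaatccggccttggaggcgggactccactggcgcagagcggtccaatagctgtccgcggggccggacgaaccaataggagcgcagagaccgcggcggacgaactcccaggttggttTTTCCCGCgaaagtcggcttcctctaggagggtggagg
Lig1: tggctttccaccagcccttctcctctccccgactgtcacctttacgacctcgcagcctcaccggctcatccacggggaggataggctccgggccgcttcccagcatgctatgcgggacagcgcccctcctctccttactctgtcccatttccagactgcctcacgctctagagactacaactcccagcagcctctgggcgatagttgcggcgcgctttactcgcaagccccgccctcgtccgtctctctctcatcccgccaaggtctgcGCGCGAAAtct

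Mcm6 held 2 matches that overlap, Mcm3 2 around the start, Mcm5 3 and Lig1 1 after the start. Of all 33469 rat promoters of this length, 2.00% held at least 1 match, as did 4.61% of the promoters of 5013 named genes tested. Among S phase genes, 73 of 84 had a promoter in the table and 25 of these held a match (34.2%). The mitosis genes were near the level of all genes tested, with 2 of 50 (4.00%). Within the S phase genes, the median difference at 12 h was 0.55 for the 25 with a match, of which 23 lay above 0, and 0.31 for the 48 without one, of which 38 did. The ranges overlapped widely (-0.06 to 2.11 and -0.21 to 1.06). A match is a string of letters and was not tested as a binding site.

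At the replication fork, Lig1, the ligase that joins Okazaki fragments, read -1.81, -1.79, -2.0 and -1.82 without factor and -0.86, -0.54, -0.80 and -0.75 with PDGF-AA. The 4 arrays of each group lay close together and the groups did not overlap. The difference was 1.12 ± 0.20 (adjusted p = 0.0803, limma), 1.10 on the Cy5 and 1.14 on the Cy3 arrays. Fen1, the flap nuclease of the same step, differed by 0.71 ± 0.20 (adjusted p = 0.532, limma), and its 2 features gave 0.29 and 1.13. Prim1, the catalytic primase subunit, differed by 0.71 ± 0.22 (adjusted p = 0.701, limma). Of 22 measured genes of DNA polymerases and the fork, 0 passed. On the higher side 11 had an unadjusted p under 0.05 (50%, against 3.55% of all units), and on the lower side 0. Pole3, a histone-fold subunit of polymerase epsilon, was the lowest of the 22 at -0.18 ± 0.14.

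Nucleotide supply followed with Rrm2, the regulated subunit of ribonucleotide reductase, which makes deoxynucleotides. Rrm2 read -2.62, -2.48, -2.94 and -2.58 without factor and -1.24, -0.52, -1.22 and -0.67 with PDGF-AA. Every PDGF-AA array lay above every no-factor array, the difference was 1.74 ± 0.31 (adjusted p = 0.0803, limma), and its 3 features ranged from 1.18 to 2.12. Rrm1, the large subunit of the enzyme, differed by 0.91 ± 0.27 (adjusted p = 0.630, limma). Of 21 measured genes of the list 0 passed, and the median was 0.36. On the higher side 11 had an unadjusted p under 0.05 (52.4%, against 3.55% of all units). Pfas, an enzyme of purine synthesis, was the lowest of the list at -0.15 ± 0.15. With the dye effect of the fit removed, the array medians of the list were -0.74 to -0.47 without factor. With PDGF-AA they were -0.48 to -0.22, so the groups overlapped.

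Chromatin assembly was represented by Chaf1a, the large subunit of the CAF-1 histone chaperone that loads nucleosomes behind the fork. Chaf1a read -1.43, -1.43, -1.82 and -1.90 without factor and -0.62, -0.25, -0.92 and -0.78 with PDGF-AA, with no overlap, and differed by 1.00 ± 0.21 (adjusted p = 0.218, limma). Of the 23 measured genes in S phase chromatin assembly and maintenance, 0 passed. On the higher side 10 had an unadjusted p under 0.05 (43.5%, against 3.55% of all units). The chaperone gene Asf1a stood at -0.19 ± 0.11.

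The dyes were read on different hybridisations, and the size of the list medians differed between them. The median difference was 0.60 on Cy5 and 0.28 on Cy3 arrays for origin licensing, 0.50 and 0.33 for the fork, 0.28 and 0.40 for nucleotide supply, and 0.33 and 0.38 for chromatin. Over the 84 S phase genes the difference on the Cy5 arrays and that on the Cy3 arrays had a Pearson correlation of 0.860, against 0.226 over all units. This describes the order of genes and not the size of their differences, across genes that share arrays and RNA preparations and are not independent.

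**Figure D2:**
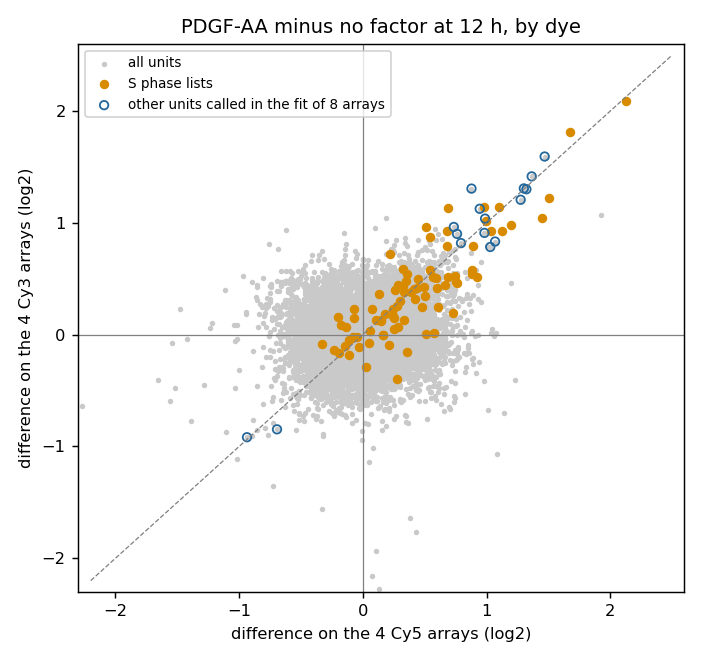
Each point is 1 unit, with the difference between PDGF-AA and no factor at 12 h on the 4 Cy5 arrays on the x axis and on the 4 Cy3 arrays on the y axis (log2), where 2 units fall outside the panel. S phase genes (orange) lie along the diagonal up to Mcm6 at 2.13 and 2.09, and open circles mark the other units called when the 8 arrays of 12 h were fitted alone.

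**Figure D3:**
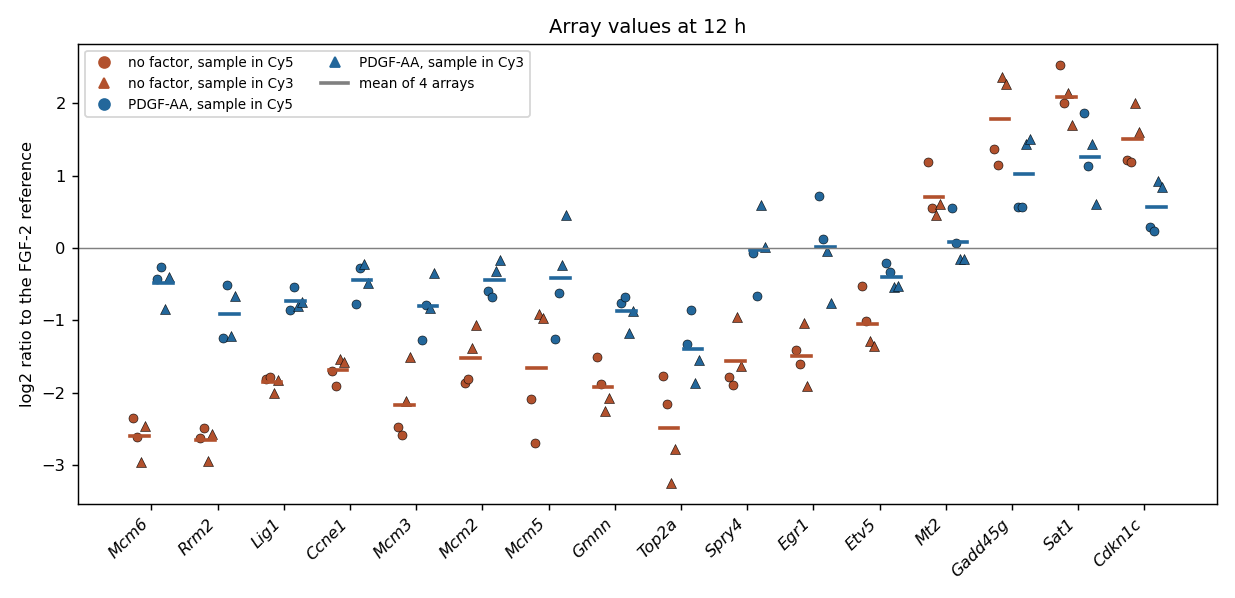
Log2 ratios to the FGF-2 reference on each of the 8 arrays at 12 h for 16 genes, without factor (brown) and with PDGF-AA (blue), with circles for arrays with the sample in Cy5, triangles for Cy3 and bars for the mean of 4 arrays. The 2 groups do not overlap for genes such as Mcm6, Rrm2, Lig1 and Ccne1, where PDGF-AA is higher, or for Cdkn1c, where it is lower, and they overlap for Mt2.

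Among cyclins and their inhibitors, Ccne1, the cyclin that activates CDK2 at the G1 to S transition, stood highest. Ccne1 read -1.70, -1.91, -1.54 and -1.58 without factor and -0.78, -0.28, -0.22 and -0.49 with PDGF-AA. No array of one group reached the other, and the difference was 1.24 ± 0.22 (adjusted p = 0.0803, limma). Ccna2, the cyclin of S phase and G2, differed by 0.75 ± 0.26 (adjusted p = 0.732, limma), and Ccnd2, a D-type cyclin of G1, by 0.34 ± 0.12 (adjusted p = 0.745, limma). Ccnd3, another D-type cyclin, stood at 0.04 ± 0.13 and Myc at 0.18 ± 0.13. On the other side was Cdkn1c, which encodes the CDK inhibitor p57 and marks cells leaving the cycle in the cortex. Cdkn1c read 1.21, 1.19, 2.00 and 1.60 without factor and 0.29, 0.24, 0.92 and 0.84 with PDGF-AA. The PDGF-AA arrays all lay below the no-factor arrays. The group means differed by -0.94 on the Cy5 arrays and by -0.92 on the Cy3 arrays. The difference of Cdkn1c, -0.93, had an SE of 0.58 in the fit of all 16 arrays (adjusted p = 0.926, limma). Cdkn2c, which encodes another CDK inhibitor, stood on the higher side at 0.36 ± 0.22 (adjusted p = 0.926, limma), and its groups overlapped. Of 32 measured genes of the list 0 passed. An unadjusted p under 0.05 was found for 6 on the higher side (18.75%, against 3.55% of all units). It was found for 1 on the lower side (3.1%, against 1.87%). That 1 was Mycl, a relative of Myc, at -0.60 ± 0.20.

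Genes of mitosis and cytokinesis act after S phase, and their median difference was 0.26, beside 0.37 for S phase genes. Top2a, the topoisomerase that untangles sister chromatids, read -1.77, -2.16, -3.24 and -2.78 without factor and -1.32, -0.85, -1.86 and -1.55 with PDGF-AA. It separated within each dye, overlapped across dyes and differed by 1.09 ± 0.26 (adjusted p = 0.326, limma). The checkpoint kinase gene Bub1 differed by 0.69 ± 0.24 (adjusted p = 0.745, limma). Aurka, a spindle kinase, differed by 0.40 ± 0.19 (adjusted p = 0.896, limma) and Cdc20, an activator of the anaphase ligase, by 0.25 ± 0.24. Aurkb stood at 0.23 ± 0.30 and Cenph, on the lower side, at -0.21 ± 0.18. Of 59 measured members 0 passed, and 50 lay above 0 (84.7%, against 49.4% of all units). On the higher side 16 had an unadjusted p under 0.05 (27.1%, against 3.55% of all units), and on the lower side 0. With the dye effect of the fit removed, their array medians ran from -1.30 to -0.89 without factor and from -0.95 to -0.50 with PDGF-AA and overlapped.

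The receptor and ligand genes showed no call. Pdgfra, which encodes the receptor for PDGF-AA, read 0.92, 0.77, 1.18 and 1.00 without factor and 0.38, 0.23, 0.91 and 0.23 with PDGF-AA. It was lower with PDGF-AA within each dye, but the groups overlapped across dyes and the difference was -0.53 ± 0.51 (adjusted p = 0.932, limma). The ligand gene Pdgfc read 0.54, 0.77, 0.75 and 0.65 without factor and 0.15, -0.12, 0.14 and 0.21 with PDGF-AA, with no overlap, and differed by -0.58 ± 0.23 (adjusted p = 0.828, limma). Pdgfa, the gene of the ligand itself, stood at 0.08 ± 0.21, Pdgfrb at 0.00 ± 0.22 and Fgfr1, a receptor for FGF-2, at 0.03 ± 0.48. The interval of Fgfr1, from -0.97 to 1.04, left room for about a 2-fold change in either direction. Of 22 measured genes of these receptors, ligands and their signalling proteins, 0 passed and 1, Pdgfc, had an unadjusted p under 0.05. That is 4.55%, against 1.87% of all units on the lower side.

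Downstream of ERK, the differences were largest for 3 of the measured genes. Spry4, a feedback inhibitor of receptor tyrosine kinases, read -1.78, -1.89, -0.95 and -1.63 without factor and -0.06, -0.67, 0.60 and 0.01 with PDGF-AA. All PDGF-AA arrays lay above all no-factor arrays, the mean with PDGF-AA was close to the FGF-2 reference at -0.03, and the difference was 1.53 ± 0.48 (adjusted p = 0.719, limma). Egr1, an immediate early transcription factor, read -1.41, -1.60, -1.03 and -1.91 without factor and 0.72, 0.13, -0.04 and -0.76 with PDGF-AA, with no overlap and a difference of 1.50 ± 0.33 (adjusted p = 0.253, limma). Its mean with PDGF-AA was 0.01. Etv5, an ETS factor induced by FGF signalling, differed by 0.64 ± 0.21 (adjusted p = 0.719, limma). Fos, by contrast, stood at 0.39 ± 0.22 and Jun at -0.28 ± 0.18, and the feedback genes Spred2 at 0.14 ± 0.15 and Il17rd at -0.08 ± 0.15. Of 7 measured ERK feedback and target genes 2 had an unadjusted p under 0.05, as did 2 of 14 immediate early genes, all higher, and none passed. These are 28.6% and 14.3%, against 3.55% of all units on the higher side. The ERK list had a median of 0.14 with 5 genes above 0 (71.4%, against 49.4% of all units). The immediate early list had a median of 0.04, with 8 genes above 0 and 6 below. Array medians of both lists, with the dye effect removed, overlapped between the groups.

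Genes of growth arrest and FoxO targets lay mostly on the lower side. Sat1, which breaks down polyamines, read 2.53, 2.00, 2.14 and 1.70 without factor and 1.87, 1.14, 1.43 and 0.61 with PDGF-AA. It was lower with PDGF-AA within each dye and differed by -0.83 ± 0.39 (adjusted p = 0.896, limma). Gadd45g, a growth arrest and stress gene, read 1.37, 1.15, 2.37 and 2.26 without factor and 0.56, 0.57, 1.44 and 1.50 with PDGF-AA. Both dyes showed the lower values with PDGF-AA, but across dyes the groups overlapped, and the difference was -0.77 ± 0.35 (adjusted p = 0.896, limma). Pink1, a mitochondrial kinase, stood at -0.40 ± 0.38. Of 20 measured members, 0 passed and 14 lay below 0, with a median of -0.19, against 50.6% below 0 over all units. On the lower side 3 had an unadjusted p under 0.05 (15%), against 1.87% of all units. With the dye effect removed, the array medians of the list were 0.19 to 0.25 without factor and 0.07 to 0.30 with PDGF-AA and overlapped.

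**Figure D4:**
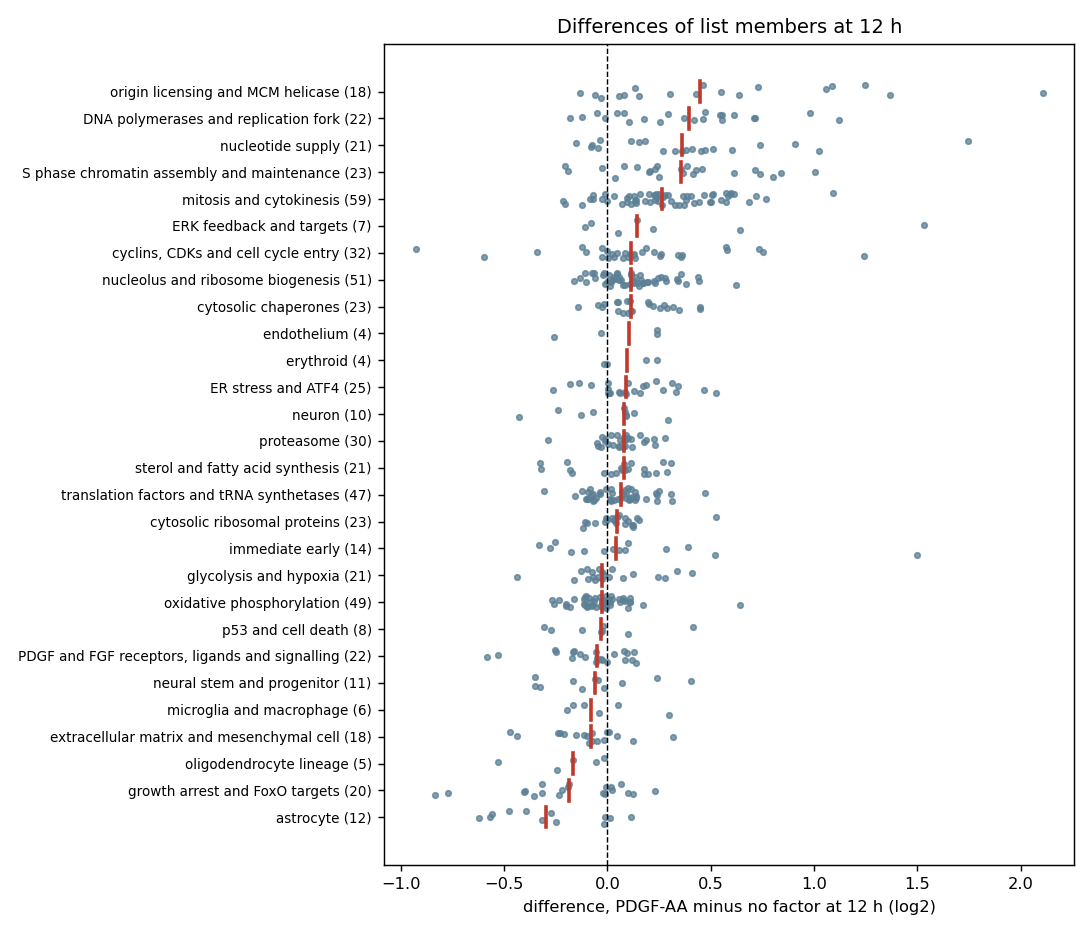
Each point is a measured gene of 1 of 28 lists, placed by its difference between PDGF-AA and no factor at 12 h (log2), with the number of measured genes after each list's name. Red bars are list medians, which run from -0.29 (astrocyte) to 0.45 (origin licensing and MCM helicase), and the dashed line is the median of all units at 0.00.

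Ribosome biogenesis and protein synthesis showed small differences. Nop58, a core protein of the box C/D snoRNPs that modify ribosomal RNA, read -0.83, -0.81, -0.62 and -0.46 without factor and -0.10, -0.06, 0.06 and -0.14 with PDGF-AA and differed by 0.62 ± 0.14 (adjusted p = 0.303, limma), with no overlap between groups. Of 51 nucleolar genes, 5 had an unadjusted p under 0.05, all higher (9.80%, against 3.55% of all units). The median was 0.12, and 40 lay above 0 (78.4%, against 49.4% of all units). The other lists of growth gave medians of 0.07 for translation factors and tRNA synthetases (47 genes, Gars at 0.47 ± 0.14), 0.11 for cytosolic chaperones (23 genes, Hspe1 at 0.45 ± 0.13), 0.09 for ER stress and ATF4 (25 genes, Hsp90b1 at 0.53 ± 0.20) and 0.08 for sterol and fatty acid synthesis (21 genes, Fdft1 at 0.29 ± 0.14). No member passed.

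The proteasome list had a median of 0.08 over 30 genes, 23 of them above 0 (76.7%, against 49.4% of all units). Its median difference was 0.12 on the Cy5 arrays but 0.0045 on the Cy3 arrays. With the dye effect removed its array medians were -0.117 to -0.047 without factor and -0.017 to 0.015 with PDGF-AA and did not overlap. Array medians of other lists, such as the nucleolar and oligodendrocyte lineage lists, also did not overlap. Cytosolic ribosomal proteins had a median of 0.05 over 23 genes. Oxidative phosphorylation stood at -0.03 over 49 genes, glycolysis and hypoxia at -0.03 over 21, and p53 and cell death at -0.03 over 8. The proteasome, ribosomal protein, oxidative phosphorylation, glycolysis and p53 lists each held 1 member with an unadjusted p under 0.05 on the higher side. These were Psmd5, Rpl5, Ndufs4, Pgk1 and Rps27l. The shares were 3.33%, 4.35%, 2.04%, 4.76% and 12.5%, against 3.55% of all units, so most were near that level. Pdk1 of the glycolysis list had one on the lower side (4.76%, against 1.87% of all units). For all 51 nucleolar, all 47 translation and all 23 chaperone genes the 95% interval lay within 1 log2 unit of 0.

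The arrays give ratios and no absolute levels, so whether the markers of the labelled cell type were present was not measured. Of 11 measured neural stem and progenitor genes, Vim (vimentin) stood at 0.40 ± 0.18, Nes (nestin) at -0.12 ± 0.17 and Prom1 (prominin) at -0.33 ± 0.14, with a list median of -0.06. Astrocyte genes lay lowest of all lists. Mt2, a metallothionein, read 1.19, 0.55, 0.46 and 0.61 without factor and 0.55, 0.07, -0.15 and -0.15 with PDGF-AA. The groups overlapped, within the Cy5 arrays only by a margin under 0.01, and the difference was -0.62 ± 0.17 (adjusted p = 0.483, limma). Its near copy Mt1 stood at -0.27 ± 0.17, and cDNA spots may not tell them apart. Aldoc, an astrocyte enzyme of glycolysis, stood at -0.47 ± 0.33, the gap junction gene Gja1 at -0.39 ± 0.23 and the glutamate transporter gene Slc1a3 at 0.12 ± 0.18. Of 12 measured astrocyte genes 10 lay below 0, against 50.6% of all units, and none passed. On the lower side 2 had an unadjusted p under 0.05 (16.7%, against 1.87% of all units), and on the higher side 0. With the dye effect of the fit removed, the array medians of the list were 0.30 to 0.70 without factor and 0.04 to 0.16 with PDGF-AA and did not overlap.

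Neuronal genes gave a median of 0.08 over 10 genes, with Tubb3 at 0.09 ± 0.14, Gap43 at 0.29 ± 0.15 and Eomes, a factor of intermediate progenitors, at -0.43 ± 0.22. All 5 measured oligodendrocyte lineage genes lay below 0, against 50.6% of all units, led by Pdgfra, with a median of -0.16. Extracellular matrix and mesenchymal genes had a median of -0.08 over 18. Genes of cells that could be carried along from the tissue were also measured: microglia and macrophages (6 genes, median -0.08), endothelium (4 genes, 0.10) and erythroid cells (4 genes, 0.09). Their array medians, with the dye effect removed, overlapped between the groups, and 0 of these 14 genes had an unadjusted p under 0.05. Their part in the differences above was not tested.

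Outside the lists, the smallest p-values on the higher side were of Ibtk, named for an inhibitor of Bruton's tyrosine kinase, at 1.39 ± 0.29 (adjusted p = 0.218, limma), Pclaf, a PCNA-binding factor, at 0.95 ± 0.20, Igfbp4, an IGF-binding protein, at 0.95 ± 0.21, and Tex101 at 0.55 ± 0.12. On the lower side Myl4, an atrial and embryonic myosin light chain, had the smallest p. Myl4 read -0.16, -0.19, 0.24 and 0.64 without factor and -1.82, -0.75, -0.40 and -0.46 with PDGF-AA. The groups did not overlap and the difference was -0.99 ± 0.20 (adjusted p = 0.218, limma). The next genes on that side were Haus6, of the augmin complex of the spindle, at -0.90 ± 0.22, Ccnc at -0.61 ± 0.16, Espn at -0.62 ± 0.16 and Cox6b2 at -1.08 ± 0.29. For Myl4, Haus6 and Cox6b2 the lowest value came from 1 array, the Cy5 array of PDGF-AA replicate 1, at -1.82, -1.92 and -2.51. Of 18 units with a difference above 1, 15 were named genes and 9 of these were S phase genes, and of 10 units below -1 only Cox6b2 was named.

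The number of calls depended on whether the 6 d arrays entered the fit, which set the estimate of the spread. With the 8 arrays of 12 h alone 25 units passed (0.199%), 23 higher (0.183%) and 2 lower (0.0159%). Differences are the same in both fits and SEs are not: for Mcm6 the SE was 0.16 in place of 0.32 (adjusted p = 0.00057, limma). The 19 named genes on the higher side were Mcm6, Mcm2, Mcm3 and Gmnn of licensing, Lig1 and Pole of the fork, Rrm2 and Mthfd2 of nucleotide supply, Chaf1a, Ccne1, Top2a and Spry4, together with Antkmt, Cbr3, Ibtk, Igfbp4, Shcbp1, Dctpp1 and Pclaf, which are in no list. The 2 lower were Cdkn1c and Gadd45g, with SEs of 0.13 and 0.12 (adjusted p = 0.0121 and 0.0297, limma). Spry4 passed there at 0.0102, and Egr1, with 0.059, did not.

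Several of the genes that passed in that fit alone were named for that reason, after their values were seen. Their SEs are from that fit unless stated and cannot be set beside those of the main fit. Mthfd2, a mitochondrial enzyme that supplies one-carbon units, read -1.37, -1.48, -1.74 and -2.05 without factor and -0.42, -0.18, -0.95 and -0.99 with PDGF-AA, with no overlap, a difference of 1.03 and an SE of 0.13. Pole, the catalytic subunit of polymerase epsilon, read -1.57, -1.77, -2.07 and -2.05 without factor and -0.90, -0.37, -1.16 and -1.12 with PDGF-AA, also with no overlap, with a difference of 0.98 ± 0.14. Dctpp1, which clears unwanted deoxynucleotides, differed by 0.81 ± 0.13, and Cbr3, a carbonyl reductase, by 0.91 ± 0.12. In the main fit, of the arrays of both times, the SEs were larger: 0.27 for Mthfd2, 0.27 for Pole, 0.20 for Dctpp1 and 0.29 for Cbr3. None of these genes passed there (adjusted p = 0.444, 0.534, 0.409 and 0.719 in the same order, limma).

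The spread differed between the times, and so did the titles. All 8 arrays of 12 h carry the same first number in their titles, whose meaning the labels do not give. At 6 d 3 no-factor arrays and 1 PDGF-AA array carry that number, while 1 no-factor array and 3 PDGF-AA arrays carry others. Time, the spread at 6 d and the title number can therefore not be told apart fully. For the 84 S phase genes the median residual SD within groups was 0.185 at 12 h and 0.266 at 6 d, and it was larger at 6 d for 57 of them (67.9%), against 0.213 and 0.231 over all units (57.6% larger at 6 d). For Mcm6 it was 0.235 at 12 h and 0.685 at 6 d. Omitting 1 array at a time, 0 to 8 units passed. Mcm6 lost its call without either of no factor 6 d replicates 2 and 3, without no factor 12 h replicate 1, 2 or 3 and without any one PDGF-AA array of 12 h, with adjusted p from 0.061 to 0.241 (limma), while its difference stayed between 1.97 and 2.26.

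The same contrast at 6 d came from 8 other arrays. Of the 84 S phase genes, 76 lay above 0 at 6 d with a median of 0.29, beside 69 and 0.37 at 12 h, where all units had 50.1% above 0 at 6 d. At 6 d 1 of all units passed (0.00796%). Mcm6 differed by 0.91 ± 0.32 at 6 d, Rrm2 by 1.19 ± 0.31, Lig1 by 0.40 ± 0.20 and Spry4 by 0.94 ± 0.48. These 6 d values did not hold among the 12 arrays of both times that share the commonest title number, where 1 PDGF-AA array was set against 3 no-factor arrays and the lone array was assumed to vary like the other groups. There 30 of the 84 S phase genes lay above 0 at 6 d (50.9% of all units did), the median was -0.10, Mcm6 stood at -0.41 ± 0.31, Rrm2 at 0.01 ± 0.34 and Spry4 at -0.34 ± 0.49.

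No unit passed the test of the difference between times, in which 497 units had an unadjusted p under 0.05 (3.96%) by limma. The difference was larger at 12 h for 49 of the 84 S phase genes, against 51.9% of all units. For Mcm6 that difference was 1.20 ± 0.45 (12 h minus 6 d; adjusted p = 0.995, limma), for Egr1 1.20 ± 0.47 and for Myl4 -1.12 ± 0.28. Among the 12 arrays of the commonest title number again 0 units passed (limma), 1057 had an unadjusted p under 0.05, the difference was larger at 12 h for 69 of the 84 S phase genes, and for Mcm6 the difference was 2.52 ± 0.36 (adjusted p = 0.0637, limma). Clu, which encodes the astrocyte-rich chaperone clusterin, was -0.32 ± 0.51 at 12 h and -1.71 ± 0.51 at 6 d, and its difference between times was 1.39 ± 0.72, which did not pass and was 0.29 ± 0.75 within the commonest title number. Ccnd2 was 0.34 ± 0.12 at 12 h and -0.25 ± 0.12 at 6 d. The neuronal gene Tubb3 was 0.09 ± 0.14 and -0.49 ± 0.14. Their differences between times, 0.59 ± 0.17 and 0.58 ± 0.20, did not pass (adjusted p = 0.995 for each, limma). Within the commonest title number these were 0.85 for Ccnd2 and 0.29 for Tubb3, beside 0.82 for Egr1 and -1.34 for Myl4. There Ccnd2 stood at -0.50 at 6 d and Tubb3 at -0.20.

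**Figure D5:**
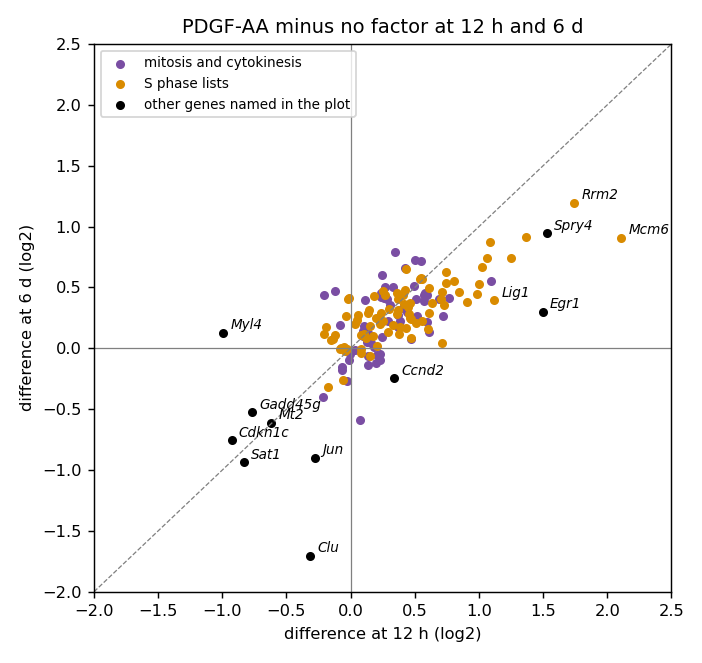
Each point is a gene, with the difference between PDGF-AA and no factor at 12 h on the x axis and at 6 d on the y axis (log2), for S phase lists (orange), mitosis and cytokinesis (purple) and some other named genes (black). Mcm6, at 2.11 and 0.91, lies below the dashed line of equality, as does Egr1, while Sat1 and Mt2 lie near it and Clu lies far below 0 at 6 d. All 16 arrays are used, so the 6 d values mix title numbers.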

How the data were processed

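Expression was measured on 16 two-colour arrays of mouse cDNA, in 4 groups of 4, with rat RNA, so divergence between species can weaken a spot. Per the labels' protocols, 40 µg of total RNA was labelled with Cy3 or Cy5, and chips were scanned with a ScanArray scanner and measured with QuantArray. The deposited values are log2 ratios, as the base is assumed. Background correction, normalisation and filters are not given in the sources used here. Swapped arrays appear to have been turned before deposit, judged from signs, less clearly with PDGF-AA. Of features over 1 on the Cy5 arrays, 89.8% (no factor) and 63.3% (PDGF-AA) had the same sign on the Cy3 arrays. Arrays of 12 h with the same dye correlated positively, the lowest correlation within a group being -0.468 between opposite dyes. The median was 0.60 for pairs of different groups with the same dye and 0.015 for pairs of the same group with opposite dyes. With the dye effect removed, same-dye pairs had medians of 0.40 between groups and 0.37 within a group. Opposite-dye pairs then had 0.39 between groups and 0.48 within a group. Intensities were not used here, so the number of arrays limits the precision.

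Of 15151 features, 8833 had 1 gene symbol and 606 several in the platform annotation, and features of a symbol were averaged. Arrays were centred on their medians. limma 3.58.1 (R 4.3.3) fitted all 16 arrays with a coefficient per group and a dye term, and a unit needed 3 arrays per group. Tests were two-sided, with Benjamini-Hochberg adjustment over all units at 0.05. The fit was tested on simulated data. Genes named were those that passed, the 12 smallest p-values in each direction, the smallest in each direction of each list, and a fixed set of genes. The members and lists were chosen with earlier results of these data known. Promoters were matched by rat symbol in a RefSeq table (GRCr8).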

Additional observations from a re-analysis of the deposited data

Results flagged for a closer look

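Among 276 groups of 4 arrays (named genes and list medians, dye effect removed), 11 had an array whose gap to the nearest other exceeded Dixon's 95% critical value as a share of the group's range, where chance alone gives about 1 in 20. In the no-factor group these were Mycl on replicate 4 (1.17, others 1.00 to 1.02), Jun on replicate 4 (-0.13, others 0.27 to 0.34), Pink1 on replicate 4 (0.93, others 1.64 to 1.78), Emcn on replicate 1 (0.027, others 0.317 to 0.342) and the astrocyte list median on replicate 2 (0.705, others 0.301 to 0.351). In the PDGF-AA group these were Eomes (-0.52, others -0.15 to -0.10), Aspm (-0.62, others -1.46 to -1.42) and the oxidative phosphorylation median (-0.153, others -0.040 to -0.019) on replicate 3, Cenph on replicate 1 (-0.40, others -0.73 to -0.71), Ccnd3 on replicate 2 (-0.16, others 0.15 to 0.20) and the median of PDGF and FGF receptors, ligands and signalling on replicate 4 (0.101, others 0.028 to 0.034). No difference between 12 h and 6 d passed its test.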

How the results depend on the processing

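No paired analysis was possible because the labels carry no replicate numbers and those used here follow accession order. The 2 calls became 25 with the 8 arrays of 12 h alone, 18 with arrays of the commonest first title number and 32 with array weights, and 0 without the dye term, with arrays scaled to a common spread, on Cy5 arrays alone or on Cy3 arrays alone (the last 2 settings were chosen after seeing the data). Of the 18, 16 were among the 25, as were 15 of the 32. The array weights put most weight on 1 array, PDGF-AA 12 h replicate 2 (5.28), while the other arrays had 0.54 to 1.82. Mcm6 lost its call without the dye term (adjusted p = 0.131, limma), with scaled arrays (0.138) and on one dye alone (0.916 and 1.00, limma), and its difference stayed between 1.90 and 2.13. Omitting 1 array at a time gave 0 to 8 calls: 8 without PDGF-AA 6 d replicate 4, 5 without PDGF-AA 6 d replicate 1, 3 without PDGF-AA 6 d replicate 3, 1 without PDGF-AA 12 h replicate 1, and 0 without no factor 6 d replicate 2 or 3, no factor 12 h replicate 1, 2 or 3, or PDGF-AA 12 h replicate 2, 3 or 4. The cause was not tested. The 4 S phase list medians stayed above 0 in all settings. List medians moved by more than their spread as follows: with array weights ER stress and ATF4 (0.19) and neuron (-0.00717), with features not averaged origin licensing and MCM helicase (0.24), on Cy5 arrays origin licensing and MCM helicase (0.60), translation factors and tRNA synthetases (0.10), p53 and cell death (-0.10), oligodendrocyte lineage (-0.032) and proteasome (0.12), and on Cy3 arrays origin licensing and MCM helicase (0.28), ERK feedback and targets (0.31), nucleolus and ribosome biogenesis (0.065), translation factors and tRNA synthetases (-0.0039), neuron (-0.010), microglia and macrophage (0.019) and proteasome (0.0045). Omitting 1 array at a time, the medians that moved by more than their spread ranged as follows: nucleolus and ribosome biogenesis 0.077 to 0.13, ER stress and ATF4 0.047 to 0.15, proteasome 0.054 to 0.091, translation factors and tRNA synthetases 0.031 to 0.083, PDGF and FGF receptors, ligands and signalling -0.12 to -0.0030, growth arrest and FoxO targets -0.22 to -0.11, p53 and cell death -0.10 to 0.025, oligodendrocyte lineage -0.25 to -0.038 and neuron -0.012 to 0.11. Some genes that did not pass changed sign: with scaled arrays Pdgfrb (0.074), with array weights Il17rd (0.0017), Pdgfa (-0.029), Ccnd3 (-0.11), Id1 (0.0065), Hba-x (0.022), Fgfr1 (-0.070) and Pdgfrb (0.093), on Cy5 arrays Nip7 (0.085), Spred2 (-0.019), Orc1 (0.023) and Il17rd (0.077), and on Cy3 arrays Bag3 (0.021), Trib3 (-0.15), Aurkb (-0.10), Pdgfa (-0.036), Ccnd3 (-0.075), Id1 (0.051), Hba-x (0.094) and Pdgfrb (0.075). Over the omissions of 1 array, those that changed sign ranged as follows: Pdgfrb -0.13 to 0.16, Ccnd3 -2.2e-05 to 0.14, Hba-x -0.16 to 0.11, Id1 -0.18 to 0.11, Il17rd -0.16 to 0.071, Aurkb -0.087 to 0.45, Slc4a1 -0.0033 to 0.33, Pdgfa -0.052 to 0.19, Fgfr1 -0.12 to 0.15 and Orc1 -0.27 to 0.054.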
